A study of Rattus norvegicus with 4 samples.

Results

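The genes of fibroblast growth factor (FGF) signalling were followed in neonatal rat cardiomyocytes that overexpressed atrogin-1: the Fgf ligands and their intracellular homologs, the Fgf receptors, the co-receptor Kl, the adaptors Frs2 and Frs3, the Sprouty and Spred feedback inhibitors and the ETS factors Etv1, Etv4 and Etv5. The members were chosen by gene symbol, and no measured value entered the rule. They were 40 of the 14217 genes measured, read by 61 of 31042 probe sets. Klb, Spred1 and Spred2 fit the same symbol rule and were not analysed here. Primary cardiomyocytes from the heart ventricles of Sprague-Dawley rats aged 1 to 2 days were plated in serum and, a day later, infected with adenovirus and kept without serum for 24 hours. The control group, Ad-GFP, received a virus that expresses green fluorescent protein (GFP), and the other group, Ad-atrogin-1, a virus that expresses atrogin-1, a muscle ubiquitin ligase subunit encoded by Fbxo32, together with GFP. Both groups therefore carried adenovirus and GFP. Each group had 2 Affymetrix rat arrays, which the labels call biological replicates, and the p-values measure the spread between these 4 arrays only.

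FGF ligands are secreted proteins that bind receptor tyrosine kinases together with heparan sulfate, and the endocrine ligands use a Klotho protein in place of heparan sulfate. The activated receptor phosphorylates the docking protein Frs2, which leads through Grb2 and Sos to Ras and ERK. ERK raises transcription of the ETS factors Etv4 and Etv5 and of Sprouty genes, whose products damp the pathway, so that the transcripts of this feedback arm are commonly read as signs of FGF activity. In the developing heart, Fgf9, Fgf16 and other ligands from the epicardium and endocardium act on Fgfr1 and Fgfr2 of the myocardium.

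All values are log2 signals per probe set, as made by robust multi-array average (RMA). Signals were compared between arrays. Probe sets differ in brightness, so an order of signals between genes is not one of RNA amounts and served only to choose which genes to name. Where a gene had several probe sets, the one with the highest mean signal stood for it. The medians of the arrays lay between 5.51 and 5.52 and the lower quartiles between 3.88 and 3.94. Members with signals under 3.88 on every array (10 of 40) are called dim below, and the size of a change in them is uncertain because no background level was estimated. The signal of Fbxo32 was 5.24 and 5.04 on the Ad-GFP arrays and 13.55 and 13.47 on the Ad-atrogin-1 arrays, a 331-fold difference (adjusted p = 3.51e-05, limma). The array labels and the targeted gene thus matched, although the probe set does not separate viral from cellular RNA. Of 10 cardiomyocyte markers, 9 were measured, and each had a signal of at least 8.69 on every array. In a culture of mixed cells, fewer cells of a type and less RNA per cell cannot be told apart.

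One member of the family passed the test. Fgf9 rose in the Ad-atrogin-1 cells by 2.28-fold, no member was called lower, and 39 of 40 members lay under 2-fold. A gene was called at an adjusted p under 0.05 (limma, Benjamini-Hochberg over the 14217 genes) and a change of at least 2-fold. In the same comparison 0.457% of all genes were called higher (65 genes) and 0.0563% were called lower (8 genes), 0.513% in all. With each array centred on its median these were 80 and 18 genes, and after a further quantile normalization 74 and 20. Without adjustment, 3 members were higher at p under 0.05 (Fgf9, Etv5 and Frs2) and 3 were lower (Spred3, Fgf13 and Fgfr2). Each is 7.5% of the members, close to the 6.83% of all genes on the higher side and the 6.52% on the lower side (13.4% in all). An equal-variance test that fits the wording of the study's methods, called the methods' t-test here, called 0 of all genes after adjustment, with a smallest adjusted p of 0.166, and so says nothing about the members there. With unadjusted p and 2-fold it called 117 of all genes and 1 member, Fgf9.

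**Figure D1:**
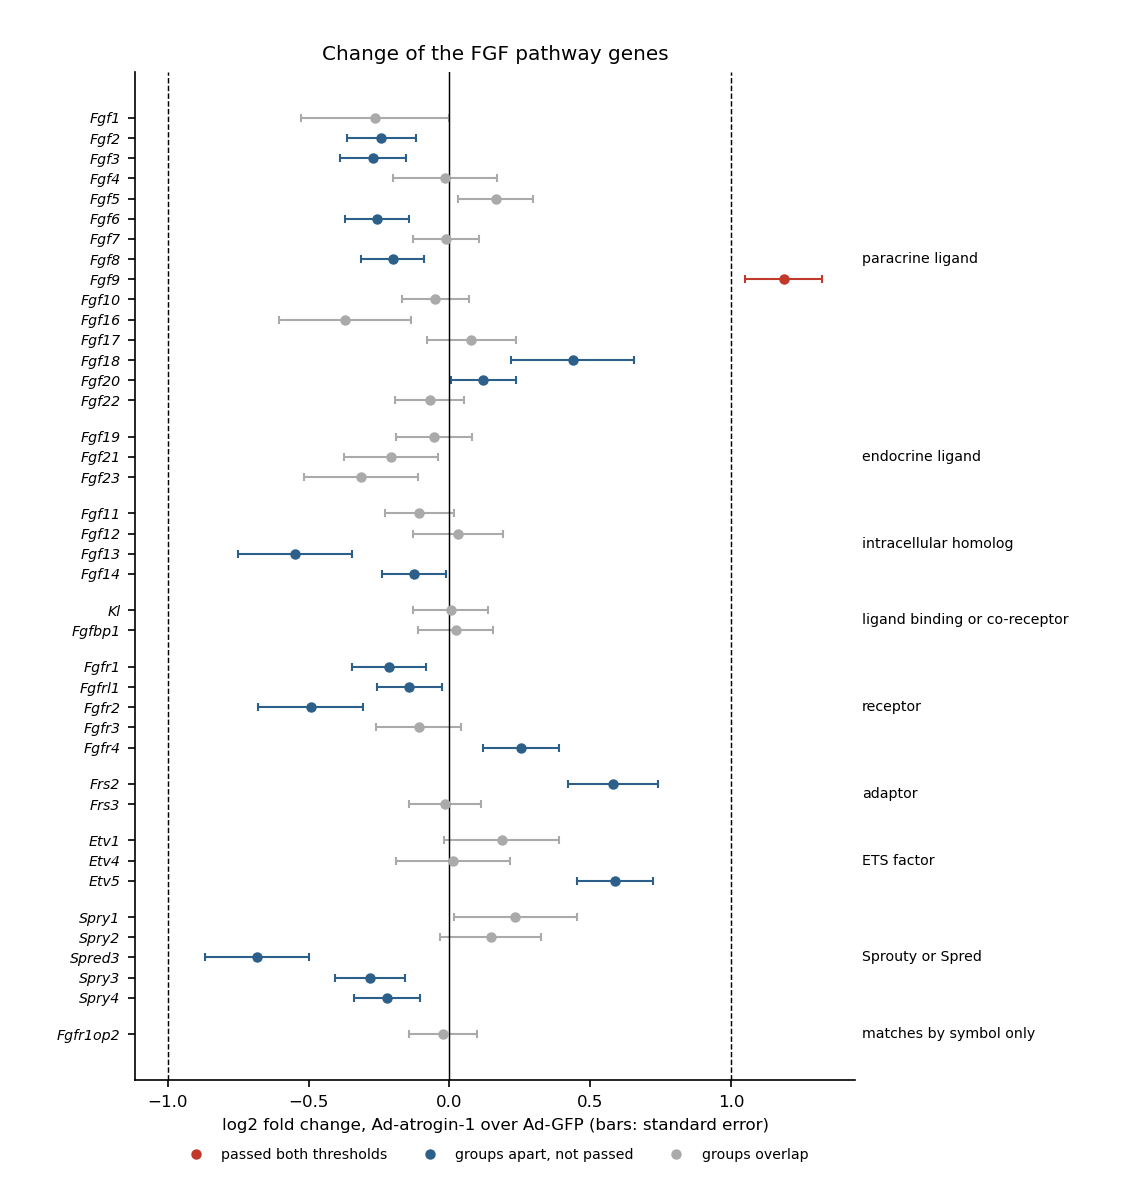
Log2 fold change of each of the 40 members (Ad-atrogin-1 minus Ad-GFP, horizontal axis), grouped by role, with blue for groups that did not overlap, red for a member that passed, bars for the standard error of the limma fit and dashed lines at 2-fold in either direction. Fgf9, at 1.19, is the one member past the 2-fold line, and the lowest value is that of Spred3, at -0.68.

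Over the family as a whole, the signs of the changes were mixed. The median log2 fold change was -0.05 over the 40 members and 0.00 over all genes, and 25 members, 62.5%, had a negative change against 50.7% of all genes. Both Ad-atrogin-1 arrays lay above both Ad-GFP arrays for 6 members, 15%, against 20.7% of all genes. They lay below for 12 members, 30%, against 22.3% of all genes, and the groups did not overlap in 43% of all genes. A change of at least 1.5-fold was seen in 3 members (Fgf9, Etv5 and Spred3), 7.5%, against 5.55% of all genes. These shares are descriptions of a small list and were not tested.

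**Figure D2:**
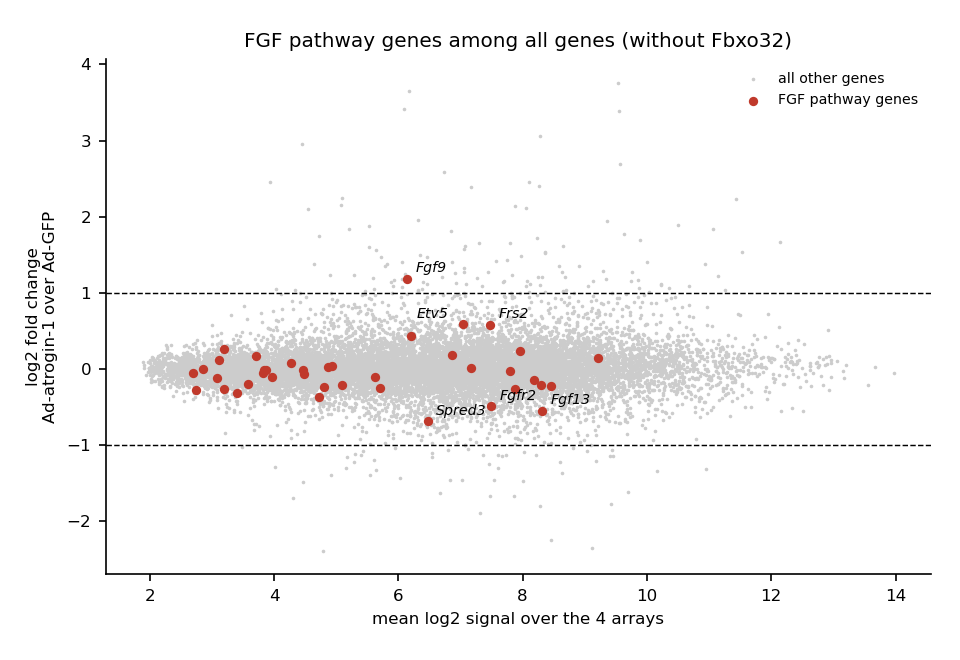
Log2 fold change (vertical axis, Ad-atrogin-1 minus Ad-GFP) by mean log2 signal of the gene (horizontal axis, 4 arrays), with the 40 members in red and the other genes in grey (Fbxo32 not drawn). Most members lie within the band of the other genes, and Fgf9 stands at 1.19 with a mean signal of 6.14.

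Among the ligands, Fgf9, a secreted factor of the epicardium and endocardium in the developing heart, was the member with the largest change. Its signal was 5.46 and 5.64 on the Ad-GFP arrays and 6.83 and 6.64 on the Ad-atrogin-1 arrays. The groups did not overlap, and the gap between them was wider than the spread within either group. The means were 5.55 ± 0.13 (SD, n = 2) and 6.73 ± 0.14 (SD, n = 2), a log2 fold change of 1.19 with a standard error of 0.14 (adjusted p = 0.0449, limma). By size of increase it ranked 75 among the 14217 genes. The other Fgf9 probe set read 5.53 and 5.59 on the Ad-GFP arrays and 6.29 and 6.36 on the Ad-atrogin-1 arrays. It moved the same way without overlap, with a log2 change of 0.77 (standard error 0.11). With adjustment over the 31042 probe sets in place of genes, neither probe set passed (adjusted p = 0.0561 and 0.0908, limma).

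The Fgf9 call was lost with any array left out, as were nearly all calls of other genes. The loss therefore cannot show whether the Fgf9 call rests on a single array. Leaving out any single Ad-GFP or Ad-atrogin-1 array kept its log2 fold change between 1.09 and 1.28. With the replicate number as a block the adjusted p of Fgf9 was 0.172 (limma) at the same fold, and 1 of all genes was called. With the mean of its probe sets in place of the brighter one the change was 0.98, just under 2-fold, with an adjusted p of 0.0363 (limma). Fgf9 also stands among the genes that the study picked from these arrays, so its listing there is not independent evidence.

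The 4 arrays differed in markers of other cells. Of 9 epithelial and mesothelial markers, 8 were measured, and their mean log2 signal was 4.54 and 4.78 on the Ad-GFP arrays and 4.98 and 5.04 on the Ad-atrogin-1 arrays. Within the list 2 genes were above, 2 below and 4 overlapping, 5 of the 8 changes were negative, and the median log2 change was -0.06. The higher means came from Krt19, a keratin of epithelial and mesothelial cells, at 3.20 and 5.48 against 7.89 and 8.09 (log2 fold change 3.65, adjusted p = 0.107, limma). Without Krt19 the means were 4.73 and 4.68 against 4.56 and 4.60, lower on both Ad-atrogin-1 arrays. Of these 7 genes 1 was above, 2 below and 4 overlapping. Krt18, another keratin, had a log2 change of -0.83. Upk1b went the other way, at 5.81 and 5.96 against 6.30 and 6.24 (log2 change 0.39). The means without Krt18 as well were not computed, so the lower means cannot be read as a fall of the whole list. All 7 smooth muscle and pericyte markers were measured, with means of 8.29 and 8.43 against 8.47 and 8.56. Of these genes 2 were above, 1 below and 4 overlapping, and 3 of the 7 changes were negative. Rgs5 had the highest log2 change, 0.98, and Cspg4 the lowest, -0.50. Rgs5 read 6.34 and 6.57 on the Ad-GFP arrays against 7.22 and 7.64 on the Ad-atrogin-1 arrays, while Acta2, Tagln, Cnn1 and Pdgfrb overlapped. The means of this list without Rgs5 were not computed, so the higher means cannot be read as a rise of the whole list. The means of the cardiomyocyte, fibroblast, endothelial, macrophage and glial lists overlapped between the groups, and no gene of any marker list was called. The part of these cells in the Fgf9 result was not tested.

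**Figure D3:**
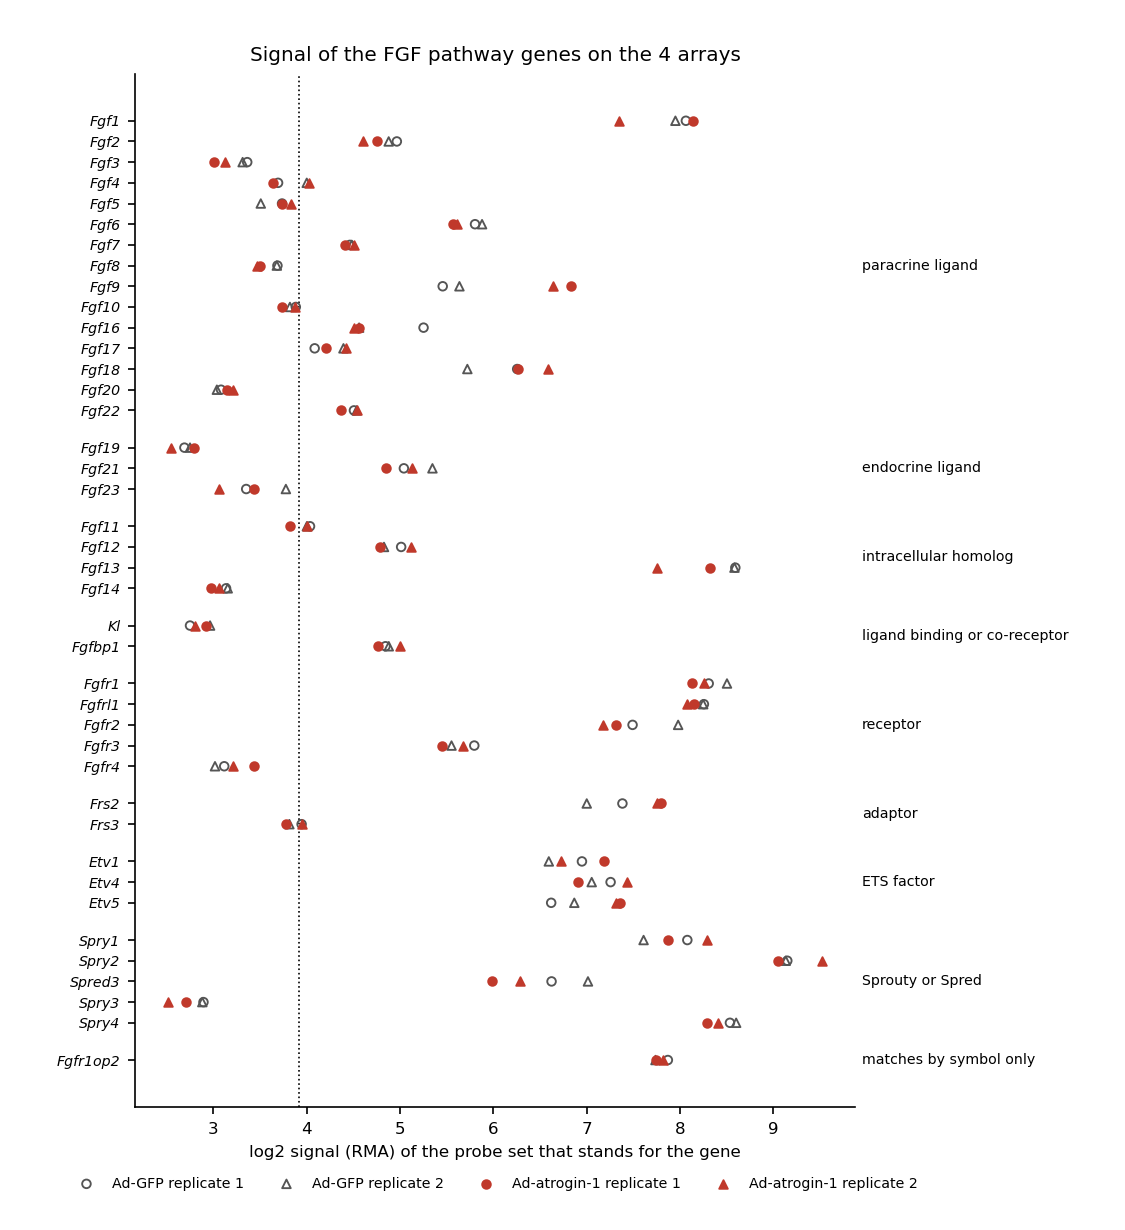
Log2 signal (horizontal axis) of each member on each array, with Ad-GFP arrays as open and Ad-atrogin-1 arrays as filled symbols, circles for replicate 1, triangles for replicate 2 and a dotted line at the mean lower quartile. The Fgf9 points of the 2 Ad-atrogin-1 arrays (6.83 and 6.64) lie apart from those of the 2 Ad-GFP arrays (5.46 and 5.64), while for 22 of the 40 members the groups overlap.

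The other 14 paracrine ligands, which act on neighbouring cells, did not pass the test. Fgf18, a ligand of the Fgf8 subfamily, read 6.26 and 5.72 on the Ad-GFP arrays and 6.26 and 6.59 on the Ad-atrogin-1 arrays. The higher Ad-GFP array reached the lower Ad-atrogin-1 array to within the rounding of these values, and the log2 change was 0.44 with a standard error of 0.22 (adjusted p = 0.470, limma). Fgf1, an acidic ligand that binds all Fgf receptors, read 8.06 and 7.95 against 8.14 and 7.35, so that the Ad-atrogin-1 arrays lay on both sides of the controls. All 3 of its probe sets had negative changes and all overlapped. Fgf16, a cardiac ligand close to Fgf9 in sequence, read 5.25 and 4.56 against 4.56 and 4.51, and 1 Ad-GFP array set its log2 change of -0.37 (standard error 0.23, adjusted p = 0.568, limma). Fgf3 was dim, with a log2 change of -0.27 and both Ad-atrogin-1 arrays lower. Fgf2, the basic FGF, read 4.97 and 4.88 against 4.76 and 4.60 (log2 change -0.24, adjusted p = 0.479, limma). The remaining 9 paracrine ligands (Fgf4, Fgf5, Fgf6, Fgf7, Fgf8, Fgf10, Fgf17, Fgf20 and Fgf22) had log2 changes between -0.26, that of Fgf6, and 0.16, that of Fgf5, and Fgf5, Fgf8 and Fgf20 were dim. Over the 15 paracrine ligands, 3 had both Ad-atrogin-1 arrays above the controls, 4 had both below and 8 overlapped. The shares above and below, 20% and 26.7%, were near those of all genes, 20.7% and 22.3%.

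The endocrine ligands and the co-receptor showed no separation. Fgf21, a stress and fasting hormone also made by cardiomyocytes, read 5.04 and 5.35 against 4.84 and 5.13. Fgf19, the bile acid hormone of the gut that is also called Fgf15 in rodents, and Fgf23, the phosphate hormone of bone, were dim and overlapped, with log2 changes of -0.05 and -0.31. Kl, the Klotho co-receptor of Fgf23, was dim as well, at 2.75 and 2.96 against 2.92 and 2.80. Fgfbp1, which carries FGF off the matrix, had a log2 change of 0.02.

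The intracellular homologs bind voltage-gated sodium channels and are not secreted. Of the 4 genes, Fgf13, a regulator of the cardiac sodium channel, had the largest change. It read 8.59 and 8.58 on the Ad-GFP arrays and 8.33 and 7.75 on the Ad-atrogin-1 arrays. Both Ad-atrogin-1 arrays were lower, but they differed from each other by as much as the groups did (log2 change -0.55, standard error 0.20, unadjusted p = 0.0384, adjusted p = 0.342, limma). Fgf14 was dim, with a log2 change of -0.13 and no overlap, and Fgf11 (-0.11) and Fgf12 (0.03) overlapped.

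No receptor passed the test. The 4 that were not dim had negative changes, 80% of the 5 receptors against 50.7% of all genes. Both Ad-atrogin-1 arrays lay below both Ad-GFP arrays for 3 receptors (60%) and above for 1 (20%), against 22.3% and 20.7% of all genes. These shares of a short list were not tested. Fgfr2, whose splice forms decide which ligands it binds, read 7.49 and 7.98 on the Ad-GFP arrays and 7.31 and 7.18 on the Ad-atrogin-1 arrays. Both Ad-atrogin-1 arrays were lower, and the log2 change was -0.49 with a standard error of 0.19 (unadjusted p = 0.0416, adjusted p = 0.351, limma). Its 5 probe sets all had negative changes, between -0.62 and -0.02, and in 3 of them the groups did not overlap. Fgfr1, the main receptor of cardiomyocytes, read 8.31 and 8.50 against 8.13 and 8.25 (log2 change -0.21, standard error 0.13, adjusted p = 0.558, limma). Its other probe set was lower too, with a log2 change of -0.33. Fgfrl1, a receptor without a kinase domain, read 8.26 and 8.25 against 8.15 and 8.07 (log2 change -0.14, adjusted p = 0.663, limma). In Fgfr1 and Fgfrl1 no array of one group crossed into the other. Fgfr3 overlapped, at 5.80 and 5.55 against 5.45 and 5.68. Fgfr4 was dim and was the one receptor with both Ad-atrogin-1 arrays higher, at 3.12 and 3.02 against 3.44 and 3.21. Fgfr1op2, named for a fusion of its human counterpart to FGFR1 and no receptor itself, read 7.87 and 7.74 against 7.74 and 7.82.

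**Figure D4:**
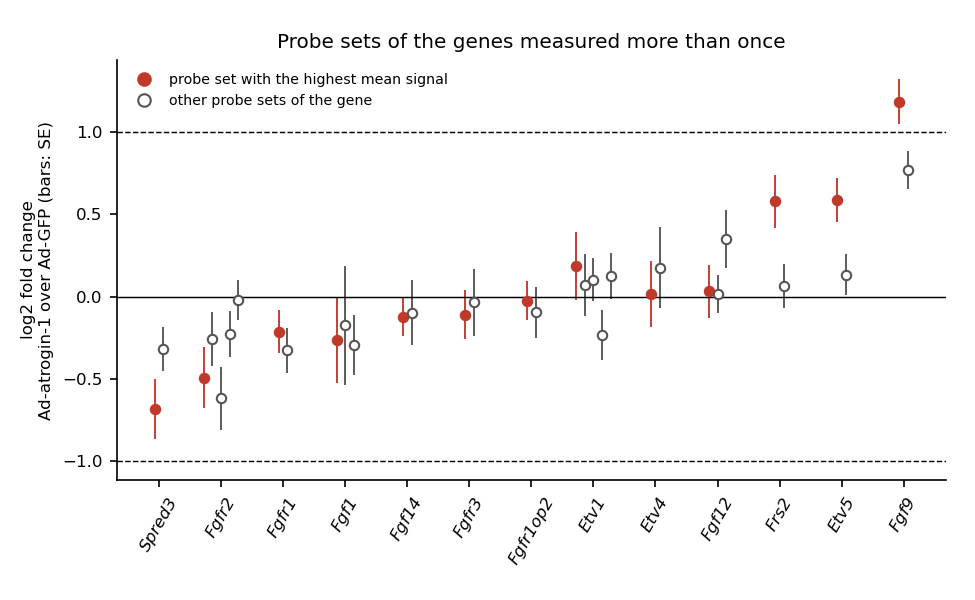
Log2 fold change (Ad-atrogin-1 minus Ad-GFP) of every probe set of the 13 members that have several, with the brightest probe set filled and bars for the standard error of the limma fit. In 12 of these members all probe sets lie on one side of 0, and Etv1 has probe sets on both sides.

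Frs2, the docking protein that links the receptor to Ras, was higher on both Ad-atrogin-1 arrays without passing the test. Its signal was 7.38 and 7.00 on the Ad-GFP arrays and 7.79 and 7.75 on the Ad-atrogin-1 arrays. The log2 change was 0.58, 1.49-fold, with a standard error of 0.16 (unadjusted p = 0.0122, adjusted p = 0.230, limma). A dimmer probe set of Frs2 changed by 0.06 and its groups overlapped, so the difference rests on 1 probe set. Frs3, the related docking protein, read 3.94 and 3.81 against 3.78 and 3.95.

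Of the ETS factors that FGF signalling induces, Etv5 was separated and Etv4 was not. Etv5 read 6.62 and 6.87 on the Ad-GFP arrays and 7.35 and 7.31 on the Ad-atrogin-1 arrays. Both Ad-atrogin-1 arrays were higher and nearly equal to each other, with a log2 change of 0.59, 1.5-fold, and a standard error of 0.13 (unadjusted p = 0.0054, adjusted p = 0.170, limma). A dimmer Etv5 probe set changed by 0.13 in the same direction. Etv4 read 7.26 and 7.05 against 6.91 and 7.43, with the Ad-atrogin-1 arrays on both sides of the controls. Etv1 read 6.95 and 6.59 against 7.19 and 6.73, and of its 5 probe sets 4 had positive and 1 had negative changes.

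The feedback inhibitors did not move together. Spred3, which blocks activation of Raf, had the most negative change of the members, without passing the test. It read 6.62 and 7.01 on the Ad-GFP arrays and 5.99 and 6.28 on the Ad-atrogin-1 arrays, both lower (log2 change -0.68, 1.61-fold, standard error 0.18, unadjusted p = 0.0108, adjusted p = 0.220, limma). Its other probe set was also lower without overlap, with a log2 change of -0.32 and a standard error of 0.13. Spry4, which inhibits Ras activation, read 8.54 and 8.60 against 8.29 and 8.41, lower on both Ad-atrogin-1 arrays (log2 change -0.22, standard error 0.12, adjusted p = 0.499, limma). Spry2 and Spry1, the feedback genes most often read as FGF targets, overlapped between the groups. Spry2 read 9.15 and 9.13 against 9.05 and 9.53, and Spry1 read 8.08 and 7.61 against 7.87 and 8.29. Spry3 was dim and lower, at 2.89 and 2.88 against 2.70 and 2.51.

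The spread within a group was often as wide as the difference between groups. In 24 of the 40 members the 2 arrays of at least 1 group differed from each other by more than the group means did. The same count over all genes was not made, so whether this is particular to the members is not known. The median difference between the replicate arrays was 0.13 on the log2 scale for Ad-GFP and 0.17 for Ad-atrogin-1, against 0.15 for both groups over all genes. The Ad-atrogin-1 arrays differed by over 0.5 in Fgf1, Fgf13 and Etv4, and the Ad-GFP arrays in Fgf16 and Fgf18. Single arrays therefore set the size of several changes that did not pass the test. Without Ad-GFP replicate 1, Fgf16 was at -0.027. Without Ad-GFP replicate 2, Fgfr2 was at -0.25, Fgf18 at 0.17, Fgfr1 at -0.12 and Fgf23 at -0.10 on the log2 scale. Each of these was closer to 0 than with all arrays. Without Ad-atrogin-1 replicate 1, Fgfr4 was at 0.14, and without Ad-atrogin-1 replicate 2, Fgf13 was at -0.26, Fgf18 at 0.27 and Spry3 at -0.19. Over the 4 ways of leaving out an array, Frs2 ranged from 0.39 to 0.77, Etv5 from 0.46 to 0.71 and Spred3 from -0.88 to -0.49.

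Regions before start sites were searched for motifs, and those of Fgf9 and Frs2 are shown, because Fgf9, Etv5 and Frs2 were the members higher at unadjusted p. The letters are RefSeq rat sequence of build GRCr8, the 250 bases before the start, in the direction of transcription, where the start is the one in the RefSeq promoter table. The Frs2 region lies directly before the annotated gene. The Fgf9 region lies within the span annotated for Fgf9, past its first annotated position, and whether it is exonic there was not analysed. The Etv5 region runs into its gene's annotated span and its letters are not shown. Capitals mark matches on either strand to CCGGAA (the ETS core), GTAAACA (FOXO), GGGCGG (SP1) or CTTTGA (TCF/LEF), motifs chosen with the results known and which do not overlap in these regions. The Fgf9 region is chr15:36327108-36327357 on the plus strand, that of Etv5 is chr11:92113013-92113262 on the plus strand, and that of Frs2 is chr7:54678657-54678906 on the minus strand.
Fgf9: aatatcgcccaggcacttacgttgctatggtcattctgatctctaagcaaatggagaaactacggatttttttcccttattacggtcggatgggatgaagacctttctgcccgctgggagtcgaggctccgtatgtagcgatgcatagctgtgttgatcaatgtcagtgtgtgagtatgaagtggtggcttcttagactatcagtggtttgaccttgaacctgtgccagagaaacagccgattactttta
Frs2: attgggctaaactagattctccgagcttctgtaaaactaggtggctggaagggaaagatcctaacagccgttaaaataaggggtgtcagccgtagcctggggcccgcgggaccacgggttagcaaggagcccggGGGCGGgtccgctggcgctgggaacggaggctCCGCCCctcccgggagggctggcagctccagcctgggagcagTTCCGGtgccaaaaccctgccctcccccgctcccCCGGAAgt

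The Fgf9 region held none of these letters. The Etv5 region held 1 FOXO and 3 SP1 matches, and the Frs2 region 2 ETS and 2 SP1 matches. Of the members, 34 genes had a region in the RefSeq table, 37 regions in all. The ETS letters were in 3 of these, 8.11%, against 19.9% of 13192 regions of all genes tested and 12.6% of all 33469 regions. The TCF/LEF letters were also in 3, 8.11%, against 11.4% and 13.9%, the FOXO letters in 1, 2.70%, against 2.28% and 3.21%, and the SP1 letters in 24, 64.9%, against 52.4% and 30.5%. A match is a run of letters and not a bound site.

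Beyond the members, the genes around the pathway were read by 3 lists. In the adaptors and the Ras-ERK cascade, 24 of 31 genes were measured and 0 were called (limma), with 1 lower at unadjusted p under 0.05, 4.17% against 6.52% of all genes. The median log2 change was -0.09, against 0.00 over all genes, with 4 genes above, 10 below and 10 overlapping. The genes above and below are 16.7% and 41.7% of the list, against 20.7% and 22.3% of all genes, which was not tested for this or the next lists. The 2 largest changes were those of Map2k2, the ERK kinase MEK2, at 0.30, and Nf1, a brake on Ras, at -0.28. The brightest genes were Akt1, a kinase of the parallel PI3K branch, at -0.10, and Ptpn11, the phosphatase SHP2, at 0.28.

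The next list held 25 genes: genes that ERK signalling induces, inhibitors of the pathway, and ETS factors downstream of ERK such as Elk1, Elk3 and Elk4. Of these, 24 were measured and 0 were called (limma). At unadjusted p under 0.05, 1 was higher and 4 were lower, 4.17% and 16.7% against 6.83% and 6.52% of all genes. The median log2 change was -0.21, with 2 genes above, 9 below and 13 overlapping. The genes above and below are 8.33% and 37.5% of the list, against 20.7% and 22.3% of all genes. Lif, a cytokine gene, had a log2 change of -0.91 (standard error 0.18, adjusted p = 0.129, limma). Junb, an immediate-early transcription factor, changed by -0.69 (standard error 0.12, adjusted p = 0.0923, limma). In both genes the groups did not overlap. The brightest genes were Ier3, an immediate-early gene, at -0.25, and Dusp6, the ERK phosphatase that FGF signalling induces, at 0.04 with overlapping groups.

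All 25 heparan sulfate core proteins and enzymes were measured and 0 were called (limma), with 2 higher and 4 lower at unadjusted p under 0.05, 8% and 16% against 6.83% and 6.52% of all genes. The median log2 change was -0.05, with 6 genes above, 7 below and 12 overlapping. The genes above and below are 24% and 28% of the list, near the 20.7% and 22.3% of all genes. Sulf1, an extracellular sulfatase that trims the sites FGF binds, changed by -0.86 (standard error 0.24, adjusted p = 0.230, limma), and Sdc1, a syndecan, by -0.61 (adjusted p = 0.242, limma). The brightest genes were Sdc4, another syndecan, at -0.59, and Sulf2, the other sulfatase, at -0.05. With unadjusted p and 2-fold, 0 genes of the 3 lists were called by limma and 0 by the methods' t-test. Over all 14217 genes these counts were 165 and 117, and the main test called 0.513%. At such low shares, 0 calls in lists this short does not set them apart from all genes.

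**Figure D5:**
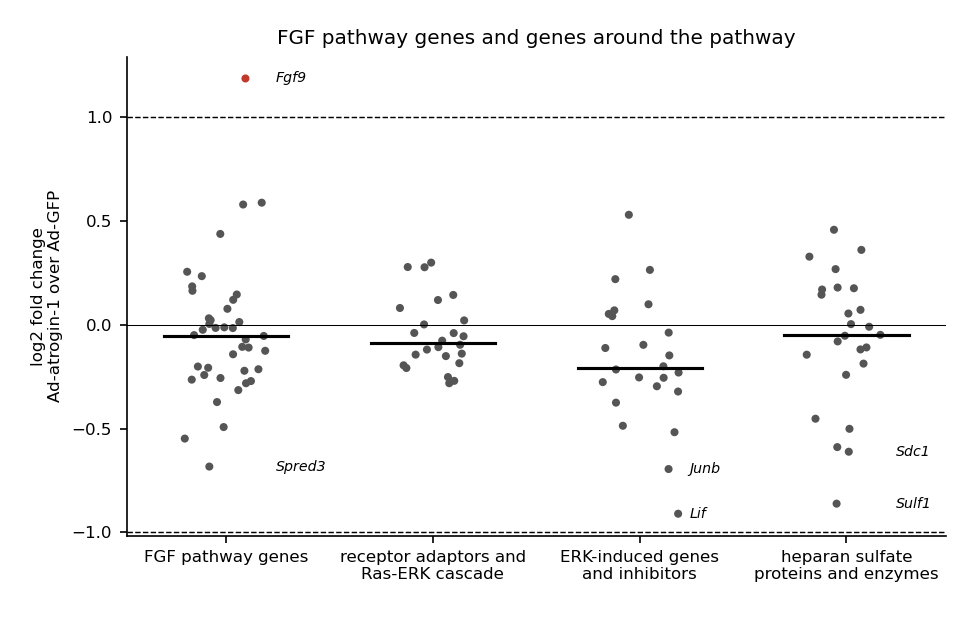
Log2 fold change (Ad-atrogin-1 minus Ad-GFP) of the 40 members and of each gene of the 3 pathway lists (vertical axis), with a bar at each median, dashed lines at 2-fold and called genes in red. The medians are -0.05 for the members, -0.09 for the Ras-ERK cascade and -0.05 for the heparan sulfate genes. The list drawn as ERK-induced genes and inhibitors, which also holds ETS factors downstream of ERK, has a median of -0.21.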

How the data were processed

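Each of 4 samples (2 per group) had 1 Affymetrix rat array. The authors deposited log2 values, 1 signal per probe set, that they had made with RMA in GeneSpring GX, and these were used unchanged. No filter on low signal was applied, and 57 control probe sets were removed. Probe sets were paired with genes through GEO's platform annotation: 20826 of 31042 with 1 gene, 436 with several and 9780 with none.

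The comparison used a two-sided moderated test (limma 3.58.1, R 4.3.3, lmFit then eBayes) without a block over all probe sets. It had 2 residual degrees of freedom, 3.65 from the prior, and a prior SD of 0.139. Benjamini-Hochberg adjustment was over 14217 genes, or over all probe sets where stated. Calls need an adjusted p under 0.05 and 2-fold, the thresholds of the methods. Standard errors are those of the fit. The number of arrays limits the precision.

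The members and lists were chosen with earlier results of these data known. Genes were named by rule: Fbxo32, called members, Fgf9, the 12 largest changes, the 8 brightest members, every receptor, Sprouty, Spred, Frs, Klotho and ETS gene, and in each list the called genes or, with none called, the 2 largest changes and the 2 brightest. Members given beside these by value, such as Fgf2 and Fgf21, were added after their values were seen. The same holds for Krt19, Krt18, Upk1b, Rgs5, Cspg4, the overlapping smooth muscle markers named and the marker means without Krt19.

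Alternatives were array centring, the brightest 60% of probe sets, further quantile normalization, a trend or robust prior, a prior from the genes alone, the methods' t-test, other thresholds, the replicate block, the mean of probe sets, every probe set, and each array left out. The fit was tested on simulated data with adjustment over 31042 probe sets. It called 21% of simulated log2 changes of 1, 79.2% of those of 1.5 and 93.4% of those of 2. Changes near 2-fold, which lie at the threshold itself, were thus mostly missed. Promoters were searched with Python 3.11.15 and figures drawn with matplotlib 3.10.9.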

Additional observations from a re-analysis of the deposited data

How the results depend on the processing

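Fgf9 stayed called with array centring, the brightest 60% of probe sets, a further quantile normalization, a trend, a robust prior or a prior from the genes alone (the last chosen after seeing the data), with adjusted p from 0.0298 to 0.0479 (limma). It was lost, leaving 0 members called, with the methods' t-test (log2 change 1.19, adjusted p 0.461), every probe set (1.19, 0.0561, limma) and the mean of probe sets (0.98, 0.0363, limma). With each array left out, 0 to 0 members and 0 to 1 of all genes were called, and Fgf9 lay between 1.09 and 1.28. There the lone array of a group is assumed to vary like the other group. Of all genes, 73 were called, 0 by the methods' t-test, 117 by it with unadjusted p and 165 by limma with unadjusted p.

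No pairing by replicate number was seen over all probe sets, where deviations of same-numbered arrays correlated at 0.04 over 2 pairs. With so few arrays, a pairing that touches only some genes could be missed. With the replicate block, 0 members and 1 of all genes were called, and Fgf9 had a log2 change of 1.19 (adjusted p 0.172, limma). The pathway lists stayed at 0 calls under every alternative run.

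After a further quantile normalization Etv4 was at -0.0075 and Frs3 at 0.018. Leaving out an array turned the sign of 9 of the 24 named members: Etv1 (-0.044 to 0.41), Etv4 (-0.25 to 0.28), Fgf1 (-0.66 to 0.13), Fgfr1op2 (-0.090 to 0.042), Fgfr3 (-0.23 to 0.012), Frs3 (-0.10 to 0.070), Kl (-0.10 to 0.11), Spry1 (-7.5e-05 to 0.47) and Spry2 (-0.091 to 0.38). The other 15 kept their direction under every alternative run. With 2 arrays a group, the spread of each gene rests largely on that of all genes.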
